A study of Arabidopsis thaliana with 8 samples.

Results

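The Arabidopsis chloroplast carries its own circular genome, whose genes encode subunits of the photosynthetic complexes, of a bacterial-type RNA polymerase and of the plastid ribosome. Many of these genes are transcribed together as long precursors, which nuclear-encoded proteins cut, trim and splice. Most chloroplast introns belong to group II, which leave as branched lariats as nuclear introns do. RNase R is an exonuclease that digests linear RNA from the 3′ end and spares lariat loops and circles, so it shows which RNAs of a sample resist such digestion.

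The loci described here are all those listed on the chloroplast genome with an FPKM (fragments per kilobase, scaled to the library's mapped fragments) above 0 in at least 2 of 8 libraries. They number 82 of 130 chloroplast loci listed, and of 32232 loci in all. The length used for FPKM may allow for fragment size, and whether libraries were also scaled to each other is not stated. The libraries are 4 groups of 2, made from rRNA-depleted total RNA of inflorescences, with plants kept at 22 °C under days of 16 h light, 8 h dark. The groups are dbr1-2 with RNase R (2 h), Col-0 with RNase R, dbr1-2 without RNase R and Col-0 without RNase R. The mutant dbr1-2 is in the Columbia background and carries a mutated DBR1, the nuclear gene of the enzyme that opens lariats, and Col-0 is its wild type. The labels do not say if replicate libraries stem from different plants, so p-values measure the spread between these libraries only, which may be technical. The floral regulators AP1, AP3, PI, AG and SEP3 were each above 1 FPKM in all 8 libraries, whereas LFY, a gene of floral meristems, was between 0 and 0.296 FPKM.

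Tag names carry a year, an earlier or a later one. Without RNase R, replicate 1 of both genotypes has the earlier year and replicate 2 the later. With RNase R, both dbr1-2 libraries have the earlier year and both Col-0 libraries the later, so genotype and tag year cannot be told apart there. The tag of dbr1-2 replicate 1 with RNase R names removal of rRNA only, while the other 7 tags also name removal of mRNA. In bulk tissue, fewer chloroplasts and less RNA per chloroplast cannot be told apart either.

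Chloroplast loci held 42.6% and 49.1% of the FPKM total in dbr1-2 with RNase R, 58.1% and 42.9% in Col-0 with RNase R, 46.5% and 46.7% in untreated dbr1-2 and 45.3% and 47.9% in untreated Col-0. A single locus, psbM, supplied 69.2% and 60.5% of the chloroplast FPKM in dbr1-2 with RNase R and 54.7% and 53.7% in Col-0 with RNase R, against 42.3% and 27.6% in dbr1-2 and 28.4% and 16.8% in Col-0 without it. psbM encodes a small photosystem II subunit, and its locus is 105 nt long. The sums therefore rest on very short loci: the 12 members under 150 nt held between 66.4% and 83.1% of the chloroplast FPKM in the 8 libraries. FPKM at such lengths is not on the footing of longer loci. In dbr1-2 replicate 1 with RNase R, values of 4 loci of 114 nt came in steps of 1633.5 FPKM. In that library 1 read on 1 kb was estimated at 0.0814 FPKM. The shares above are therefore of FPKM and not of RNA molecules.

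Short loci of the whole table were mostly listed at 0. None of the 545 loci in the whole table with an interval under 102 nt was above 0 in any library, and 31 of these are chloroplast loci. The cut of 102 nt was set at the shortest member, so no chloroplast locus below it could be a member. It is no sharp boundary either: of 300 loci from 102 nt to just under 150 nt, only 23 were above 0 in any library. The 35 loci classed as transfer RNA were at 0 in every library, as was a further tRNA-Thr locus classed apart. So were petN and petL, genes of cytochrome b6f subunits. The 3 coding sequences below lie above, at and below 102 nt. psbM has the highest FPKM of all members in 7 of 8 libraries (rps12 in untreated Col-0 replicate 2). psbT (102 nt), a photosystem II subunit, is the shortest member and at 0 in 6 libraries, and petN (90 nt) is no member. Start and stop codons are in capitals, and the sequences are those of the RefSeq plastid genome (TAIR10.1 assembly), read on the coding strand.
psbM: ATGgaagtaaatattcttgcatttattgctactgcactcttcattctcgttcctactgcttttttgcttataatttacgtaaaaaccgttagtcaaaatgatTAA
psbT: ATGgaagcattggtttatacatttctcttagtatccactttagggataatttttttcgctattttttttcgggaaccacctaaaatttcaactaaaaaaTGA
petN: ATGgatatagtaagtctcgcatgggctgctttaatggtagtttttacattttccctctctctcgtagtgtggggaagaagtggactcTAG
psbM lies on the minus strand of the plastid chromosome from 28707 to 28811, psbT on the plus strand from 74082 to 74183 and petN on the plus strand from 28089 to 28178.

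Of the 130 chloroplast loci, 46 were at 0 in all 8 libraries and 2 were above 0 in 1 library. Among the 82 members, exact zeros numbered 11 and 8 in dbr1-2 with RNase R, 10 and 13 in Col-0 with RNase R, 8 and 8 in untreated dbr1-2 and 5 and 6 in untreated Col-0. Most of them lie in the inverted repeat, a 26264 nt stretch present in 2 copies, from 84171 to 110434 and from 128215 to 154478. The 13 members wholly within it, which include both copies of the 16S and 23S ribosomal RNA genes, of ycf2, rps7, ndhB and rpl2, never exceeded 0.785 FPKM. Reads from 2 identical copies cannot be assigned to either, and whether such reads were dropped is not stated. With RNase R, the values of these loci above 0 numbered 5 and 8 in dbr1-2 and 4 and 3 in Col-0. After a fixed allowance for fragment length, 5, 7, 4 and 3 of these were whole multiples, within 0.1, of what 1 read would be worth, at an estimated 1 to 8 reads each. What 1 read is worth was itself estimated in each library from the steps of low values. A match to multiples is therefore partly built in. Without RNase R the multiples held less often, for 6 of 8 and 4 of 8 values in dbr1-2 and 7 of 9 and 6 of 9 in Col-0.

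Outside the repeat, 3 members were listed at 0 in some libraries and at high FPKM in others. psbA, the photosystem II reaction centre protein D1, had 10159 and 12106 FPKM in untreated Col-0 and was listed at 0 in the other 6 libraries. rbcL, the large subunit of Rubisco, reached 39187 and 40535 FPKM in RNase R-treated Col-0 and 8804 FPKM in untreated Col-0 replicate 1, and was listed at 0 in untreated Col-0 replicate 2 and in all 4 dbr1-2 libraries. psbT was at 40513 FPKM in Col-0 replicate 1 with RNase R, at 5544 FPKM in Col-0 replicate 2 without it and at 0 elsewhere. rbcL and psbT thus stand at 0 in 1 replicate of a group and high in the other, and no fold change is given for the 3 loci. The other 62 single-copy members were above 0 in all 8 libraries.

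**Figure D1:**
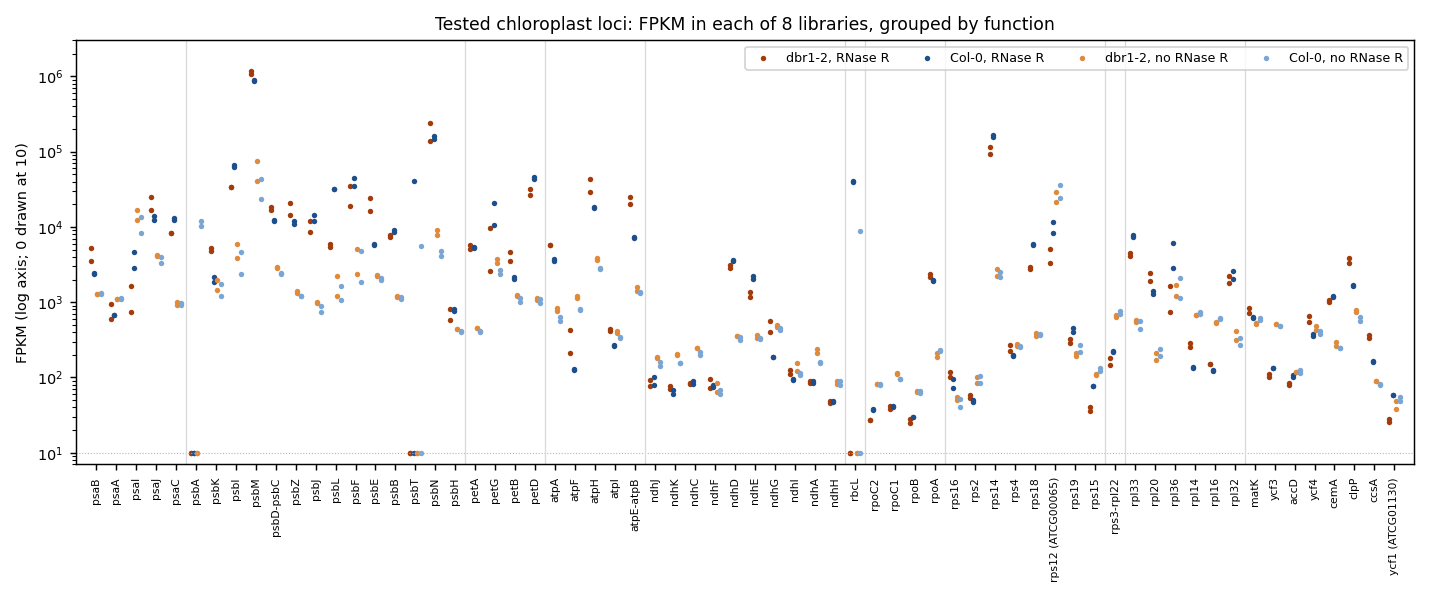
FPKM (log axis) of 66 of the 68 tested members in each library, ordered by function; points are single libraries, values of 0 are drawn at 10, and colours mark the 4 groups. psbM is highest in 7 of 8 libraries, and rbcL, psbA and psbT are the 3 members with points at 0.

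The filter of at least 1 FPKM in at least 2 libraries left 68 members to test. The other 14 are the 13 repeat members and one of the 2 ycf1 loci. Among the members, 3 carry several names and hold the overlapping genes psbD-psbC, atpE-atpB and rps3-rpl22, and their values are for the pair. Values of matK, whose interval from 1717 to 4347 is also that of trnK, and of ndhF, which shares 109405 to 112638 with the shorter ycf1 locus, may likewise include reads of the other gene.

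Levels of single-copy loci differed widely. Without RNase R, the photosystem II pair psbD-psbC, a reaction centre protein and a core antenna protein, had 2884 and 2921 FPKM in dbr1-2 and 2455 and 2386 FPKM in Col-0. The photosystem I reaction centre gene psaB had 1302 and 1297 FPKM in dbr1-2 and 1287 and 1312 FPKM in Col-0. At the other end, rpoB, the β subunit of the plastid RNA polymerase, had 66.2 and 63.7 FPKM in dbr1-2 and 66.9 and 62.4 FPKM in Col-0. FPKM is per length and these loci are 2205 nt or longer, so their levels can be set side by side. In each of these libraries both photosystem loci stood above the polymerase gene.

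Short loci varied more between replicates than long ones. The 11 tested members of 105 to 135 nt other than psbT differed between tag years by a median of 0.44 in dbr1-2 and 0.61 in Col-0 on the log2 scale without RNase R, against 0.06 and 0.09 for the 24 members of 1000 nt or more. psbM had 75614 FPKM in the library of the earlier year and 41059 in that of the later year in dbr1-2, and 43344 and 23834 FPKM in those of Col-0. psbF, the β subunit of cytochrome b559, ran the other way, with 2380 and 5101 FPKM in dbr1-2 and 1871 and 4774 FPKM in Col-0. In both genotypes the later library was thus lower for psbM and higher for psbF.

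Among loci of 114 nt the values came in coarse steps. In dbr1-2 replicate 1 with RNase R, psaI, rpl36, rps12 and petG stood at 1, 1, 2 and 6 times 1633.5 FPKM, and in Col-0 replicate 2 with RNase R at 3, 3, 12 and 22 times 955.9 FPKM. psaI and rpl36, genes of unrelated function, had the same value in 3 of the 4 libraries with RNase R. The steps give only the ratio of the values, since the number of reads in a step is not known. For the 28 uninterrupted single-copy members of 300 nt or more, the scale of reads estimated above puts the lowest, ndhC, at 120 to 170 reads with RNase R. That figure is only as good as the estimate.

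RNase R asks which chloroplast RNAs resist digestion. Of the 68 tested members, 38 rose and 20 fell in dbr1-2, against 15.0% higher and 69.3% lower over all 14351 tested loci. In Col-0, 38 rose and 22 fell, against 8.27% higher and 71.0% lower over all tested loci (limma, Benjamini-Hochberg adjusted p under 0.05; 84.3% of all loci were called in dbr1-2 and 79.3% in Col-0). Median log2 fold changes of the 65 members without zeros were 1.48 in dbr1-2 and 0.95 in Col-0, against −0.69 and −0.66 over all tested loci. Both comparisons gave a rise for 35 members and a fall for 18, and none was called in opposite directions. Shared calls were not counted over all loci. With 84.3% and 79.3% of all loci called, this overlap cannot be read as particular to the members. The 68 tested loci of the mitochondrial genome, the other organelle, had 7 rises and 36 falls in dbr1-2 and 14 rises and 31 falls in Col-0.

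These directions depend on how the libraries are scaled, because the FPKM total itself was 2796449 to 4003096 with RNase R and 295494 to 384482 without it. With median ratios over nuclear loci, the calls became 45 higher and 14 lower in dbr1-2 and 47 and 6 in Col-0. With median ratios over chloroplast loci they were 28 and 30 in dbr1-2 and 29 and 29 in Col-0, and with values scaled to one common total (TPM) 4 and 46 in dbr1-2 and 7 and 47 in Col-0. The median over all tested loci moved with them, to −0.07, −1.49 and −2.69 in dbr1-2 and to −0.04, −1.30 and −2.67 in Col-0. Differences between members depend far less on a scaling of whole libraries. The standard deviation of their log2 fold changes was 2.15 in dbr1-2 and 2.21 in Col-0, against 1.09 and 0.92 for 14215 nuclear loci. Folds here are of FPKM + 1, which understates changes of low loci. These spreads, and the medians above, are therefore not on a like footing for loci at unlike levels.

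**Figure D2:**
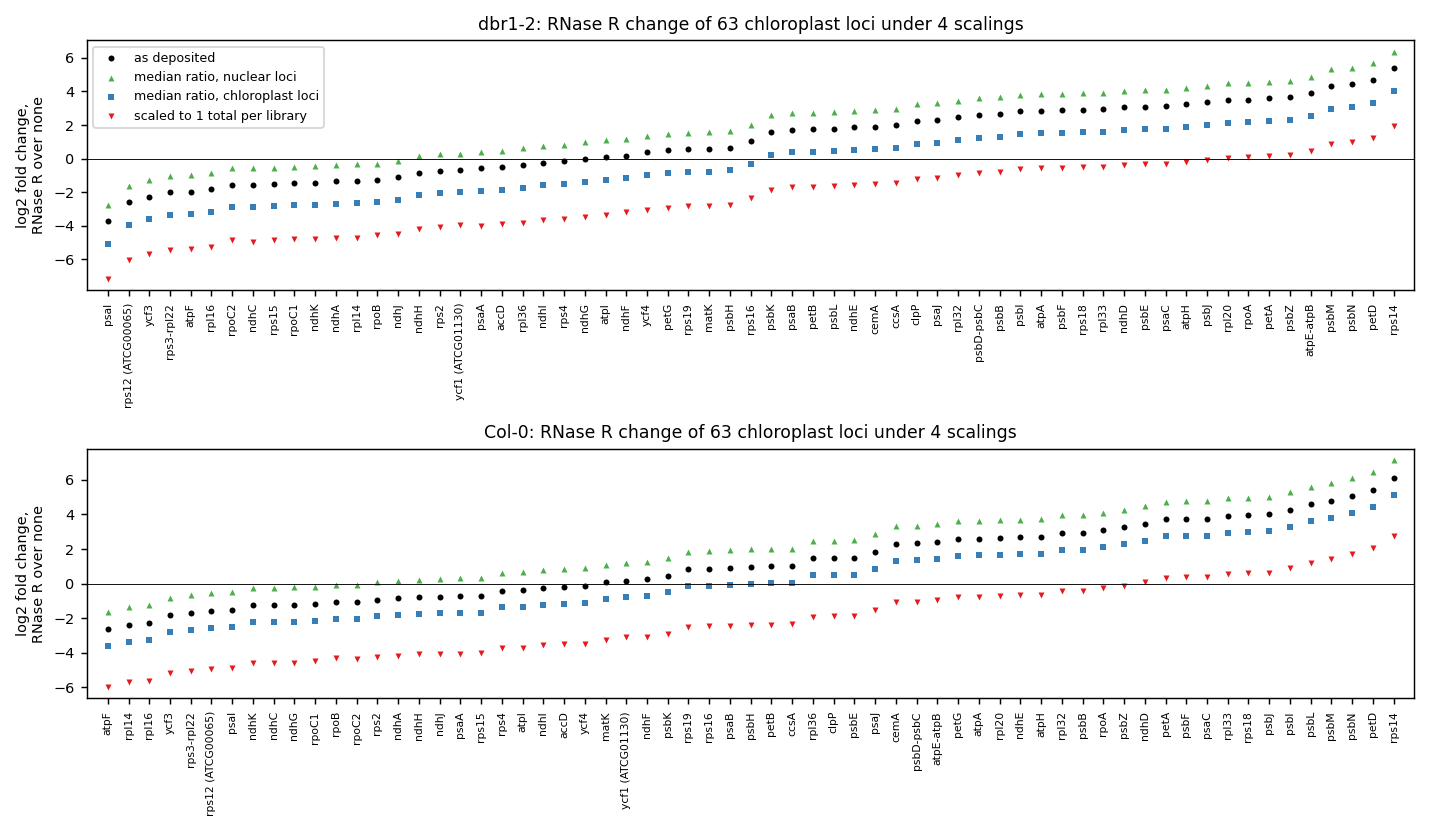
RNase R log2 fold change (y axis) of 63 members in dbr1-2 (top) and Col-0 (bottom), sorted by the value as deposited; colours and marker shapes are the 4 scalings. The curves lie above one another, and 4 members in dbr1-2 and 7 in Col-0 were called higher in all 4.

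Under all 4 scalings petD, rps14, psbM and psbN rose and atpF, ycf3, rpl14, rpl16 and rps3-rpl22 fell in both genotypes. rps14 encodes a protein of the small ribosomal subunit and lies from 36938 to 37240. It had 92086 and 114009 FPKM in dbr1-2 with RNase R, against 2728 and 2217 FPKM without it, and 158423 and 164577 FPKM in treated Col-0, against 2485 and 2157 FPKM in untreated Col-0. The groups lie far apart in both genotypes, with log2 fold changes of 5.38 (SE 0.20, limma adjusted p = 8.6e-07) in dbr1-2 and 6.12 (SE 0.20, limma adjusted p = 6.4e-07) in Col-0.

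petD encodes subunit IV of the cytochrome b6f complex and has 1 intron (76481 to 77672). Its FPKM was 26257 and 31459 in dbr1-2 with RNase R, against 1081 and 1149 without it, and 43263 and 45392 in Col-0 with RNase R, against 976 and 1107 without it. The log2 fold changes were 4.69 (SE 0.16) in dbr1-2 and 5.41 (SE 0.16) in Col-0, each past the threshold. psbN, a factor in photosystem II assembly, had 138231 and 240059 FPKM in dbr1-2 with RNase R, against 7888 and 9011 without it, and 146327 and 159394 FPKM in treated Col-0, against 4154 and 4839 without it. psbN (74249 to 74380) lies within the psbB cluster on the opposite strand, and no source says that counting used the strand, so its reads cannot be told apart from those of the transcripts across it.

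Of the members that fell, atpF, subunit b of the ATP synthase, has 1 intron (11529 to 12798). It had 430 and 211 FPKM in dbr1-2 with RNase R, against 1152 and 1217 without it, and 129 and 124 FPKM in treated Col-0, against 777 and 815 without it. Its log2 fold change was −1.97 (SE 0.28) in dbr1-2 and −2.64 (SE 0.28) in Col-0. ycf3, a photosystem I assembly factor with 2 introns, had 101 and 110 FPKM in dbr1-2 with RNase R, against 510 and 515 without it, and 134 and 132 FPKM in treated Col-0, against 484 and 476 without it. No library with RNase R reached the values without it for either gene.

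In the values as deposited, and with calls that turned round under another scaling for 26 members in dbr1-2 and 27 in Col-0, rises outnumbered falls among the cytochrome b6f and photosystem II genes, and falls outnumbered rises among the polymerase and NADH dehydrogenase-like (NDH) genes. Of 14 tested photosystem II loci, 12 rose and none fell in dbr1-2, where psbA and psbT were at 0 in all 4 libraries, and 11 rose and 1 fell in Col-0, the fall being psbA with its listed zeros. Of 4 cytochrome b6f loci, 3 rose in dbr1-2 and 4 in Col-0, petG (114 nt) being the one that did not pass in dbr1-2 at 9801 and 2567 FPKM with RNase R, against 3797 and 3354 FPKM without it. Of 4 RNA polymerase loci, rpoA rose and rpoB, rpoC1 and rpoC2 fell in both genotypes. Of 10 NDH loci, 2 rose and 5 fell in dbr1-2 and 2 rose and 6 fell in Col-0, and the risers in both were ndhD and ndhE. The calls also differed by length. Of 11 members without zeros under 150 nt, 7 rose and 2 fell in dbr1-2, and 9 rose and 2 fell in Col-0. Of 24 of 1000 nt or more, 11 rose and 12 fell in dbr1-2, and 10 rose and 10 fell in Col-0. The photosystem II loci psbI, psbM, psbJ, psbL, psbF and psbN are under 150 nt, while rpoB, rpoC1 and rpoC2 are 2834 nt or longer. Whether function counts apart from length was not tested.

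Genes that share a transcription unit differed widely. In the psbB cluster the log2 fold changes in order of transcription were 2.67 for psbB, 0.66 for psbH, 1.74 for petB and 4.69 for petD in dbr1-2, and 2.94, 0.95, 1.00 and 5.41 in Col-0. The ratio of petD to petB, which no scaling of a library changes, was 5.58 and 8.97 in dbr1-2 and 21.0 and 20.8 in Col-0 with RNase R, and 0.90 and 0.93 in dbr1-2 and 0.97 and 0.98 in Col-0 without it. petD and petB, neighbours of similar level without RNase R, thus parted in all 4 libraries with it.

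In the psaA cluster, which encodes the photosystem I core, psaA fell (−0.57 in dbr1-2, −0.72 in Col-0), psaB rose (1.72 and 0.90) and rps14 rose most. The ratio of rps14 to psaA was 98.2 and 192 in dbr1-2 and 238 and 242 in Col-0 with RNase R, against 2.49 and 1.98 in dbr1-2 and 2.29 and 1.90 in Col-0 without it. The direction of the psaA and psaB changes is that of the values as deposited: psaB, called higher there, was called lower with values scaled to one total, in both genotypes.

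Later genes were also higher in 3 further clusters. In the ndhH cluster, ndhH changed by −0.84 in dbr1-2 and −0.78 in Col-0, while ndhE, psaC and ndhD, the last 3 genes, changed by 1.87, 3.11 and 3.07 in dbr1-2 and by 2.68, 3.74 and 3.45 in Col-0. In the cluster of ribosomal protein genes, rps19, the first gene tested, rose as deposited (0.57 in dbr1-2, 0.82 in Col-0). Its call turned round under another scaling in both genotypes. The loci rps3-rpl22, rpl16 and rpl14 fell in both genotypes, and rpoA, the last gene, rose (3.51 in dbr1-2, 3.08 in Col-0). Similarly petA, the gene of cytochrome f and the last of the psaI cluster, rose by 3.58 in dbr1-2 and 3.71 in Col-0, while psaI, the first, fell by 3.73 and 1.54 on the log2 scale.

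Other clusters lacked that order, wholly or at some genes. The rpoB cluster fell as a whole, under all 4 scalings in dbr1-2 but not in Col-0, with log2 fold changes of −1.27, −1.46 and −1.56 for rpoB, rpoC1 and rpoC2 in dbr1-2 and −1.08, −1.19 and −1.06 in Col-0. So did the ndhC cluster as deposited (ndhC and ndhK under all 4 scalings in dbr1-2, none of the cluster in Col-0), where ndhC, ndhK and ndhJ changed by −1.55, −1.43 and −1.12 in dbr1-2 and by −1.25, −1.26 and −0.75 in Col-0. In the atpI cluster the first genes, rps2 and atpI, changed by −0.72 and 0.10 in dbr1-2 and by −0.93 and −0.35 in Col-0. The last gene, atpA, rose by 2.86 in dbr1-2 and 2.61 in Col-0. Between these, atpH rose by 3.23 in dbr1-2 and 2.71 in Col-0, while atpF fell. The ratio of atpF to atpA was 0.074 and 0.037 in dbr1-2 and 0.036 and 0.033 in Col-0 with RNase R, against 1.51 and 1.48 in dbr1-2 and 1.39 and 1.28 in Col-0 without it.

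**Figure D3:**
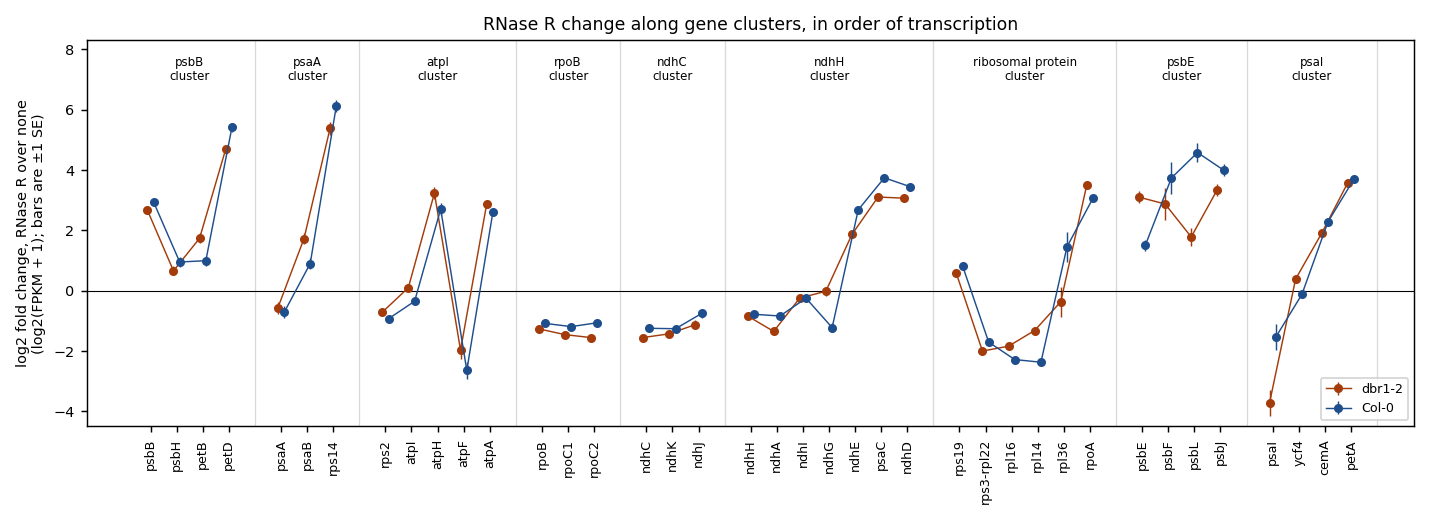
RNase R log2 fold change (y axis, bars ±1 SE, n = 2 libraries per group) along 9 gene clusters, of which some genes are not drawn, with genes in order of transcription and dbr1-2 drawn left of Col-0 at each gene. The last gene is highest in the psaA, psbB, ribosomal protein and psaI clusters, and the rpoB and ndhC clusters lie below 0 throughout in the values as deposited, which other scalings shift as a whole.

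**Figure D4:**
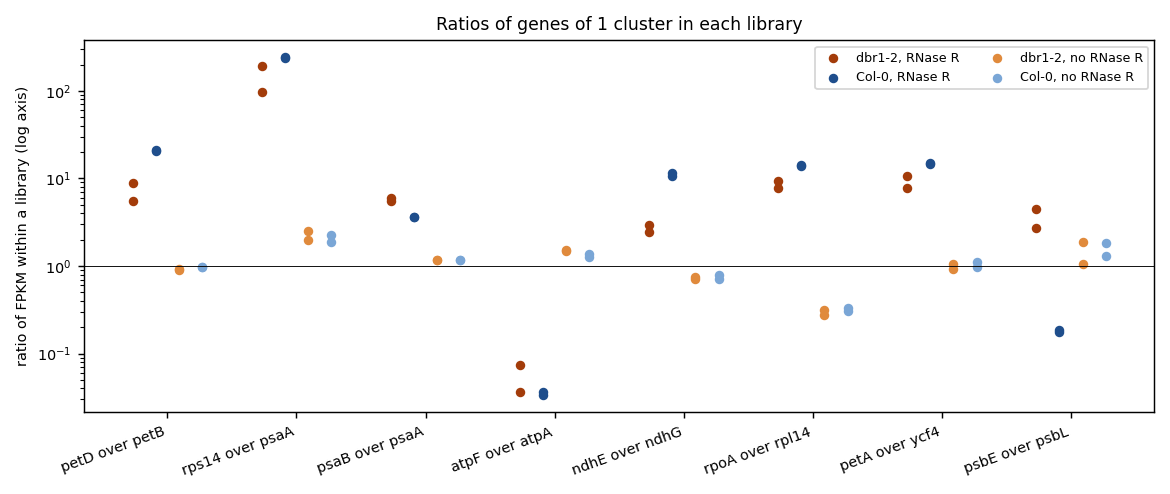
Ratio of the FPKM of 2 genes of a cluster (log axis) in each of 8 libraries, coloured by group. Libraries with RNase R lie away from those without it for each of the 8 pairs, in opposite directions in dbr1-2 and Col-0 for psbE over psbL.

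Intron-containing genes moved in both directions. Of 15 members with introns, 10 were tested. As deposited, petB, petD, rps16 and clpP rose while atpF, rpoC1, ycf3, rps12, rpl16 and ndhA fell, in both genotypes. Under all 4 scalings petD rose and atpF, ycf3 and rpl16 fell in both genotypes. Calls for petB, rps16 and clpP turned round under another scaling in both. The median log2 fold change of the 10 was −1.40 in dbr1-2 and −1.02 in Col-0, against 0.39 and 0.18 for the 35 loci without introns of 300 nt or more. Whether reads of the introns themselves entered the FPKM is not stated. The rps12 locus tested here is the first exon of that trans-spliced gene, 114 nt long, and its values belong to the coarse steps above. It counts in the median of the intron-containing genes, although the loci without introns were limited to 300 nt or more.

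The genotype comparison without RNase R asks whether the mutant carries altered levels of chloroplast RNA. Of 68 members, 2 were higher and 1 lower in dbr1-2, against 14.2% higher and 3.32% lower (17.5% in all) over all tested loci, and the lower one is psbA, listed at 0 in dbr1-2. ndhA, an NDH subunit gene with 1 intron, had 238 and 213 FPKM in dbr1-2, against 159 and 156 FPKM in Col-0. ndhK, another NDH subunit, had 203 and 196 FPKM in dbr1-2, against 156 and 155 FPKM in Col-0. The groups do not overlap for either gene, with log2 fold changes of 0.51 (SE 0.10, limma adjusted p = 0.0102) and 0.36 (SE 0.10, limma adjusted p = 0.0463). Neither passed with median ratios over nuclear loci (limma adjusted p = 0.0748 and 0.539), which left psbA as the only call.

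Among members without zeros, the largest differences that did not pass were those of psbN and psbM. psbN had 7888 and 9011 FPKM in dbr1-2, against 4154 and 4839 FPKM in Col-0 (0.91, SE 0.29, limma adjusted p = 0.0678), and the genotypes do not overlap. psbM differed by 0.79 (SE 0.42, limma adjusted p = 0.243), and its libraries overlap. The median log2 fold change of the 65 members without zeros was 0.14, against 0.13 over all tested loci. The difference had the same sign in the libraries of both tag years for 58 of the 65, and 46 of these were positive. Of all 14351 tested loci, 10299 were positive in this comparison. Agreement between tag years was not counted over all loci, so it cannot be read as particular to the members. All 5 ATP synthase loci were positive, from 0.15 for atpE-atpB to 0.57 for atpF, and none passed. atpA, the α subunit, came nearest, at 761 and 825 FPKM in dbr1-2 and 559 and 637 FPKM in Col-0 (0.41, SE 0.12, limma adjusted p = 0.0593). With the replicate number as a block, atpA and psbN were also called and ndhK was not (limma adjusted p = 0.0583). With tag year as a covariate, atpA and psbM were also called and ndhK was not (limma adjusted p = 0.0677). When only the 4 libraries compared entered the fit, 8 members were called, among them atpA, atpF and atpH.

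With RNase R, 20 members were higher and 18 lower in dbr1-2, against 29.9% higher and 7.09% lower (37.0% in all) over all tested loci. The tag years differ between the genotypes here, and with tag year as a covariate, which only the libraries without RNase R can estimate, 11 were higher and 11 lower, 21 of these 22 being among the 38. Scaling moved the split to 14 higher and 26 lower with nuclear median ratios, 8 and 32 with chloroplast median ratios and 6 and 12 with one common total. Without dbr1-2 replicate 1, the library whose tag names rRNA removal only, 21 were higher and 17 lower.

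Members higher in dbr1-2 under all 4 scalings were psbK, ccsA, atpF, atpE-atpB, psbE and ndhG. psbE, the α subunit of cytochrome b559 (64071 to 64322), had 16209 and 23897 FPKM in dbr1-2, against 5702 and 5938 FPKM in Col-0, and the libraries of the genotypes do not overlap (log2 fold change 1.76, SE 0.19, limma adjusted p = 0.000335). atpE-atpB, the ε and β subunits of the ATP synthase, had 19889 and 24919 FPKM in dbr1-2, against 7091 and 7348 FPKM in Col-0 (1.62, SE 0.16, limma adjusted p = 0.000176). All 5 ATP synthase loci were called higher in dbr1-2 with RNase R, from 0.66 for atpA to 1.62 for atpE-atpB. That count holds for the values as deposited, and under all 4 scalings for atpF and atpE-atpB. The call for atpF was lost without Col-0 replicate 2 (limma adjusted p = 0.0521) and with tag year as a covariate (limma adjusted p = 0.0843).

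Under the 4 scalings psaI, rpl33, rps18, psbL, rps12, rpl36, ndhE, rps15 and ycf1 (ATCG01130) were lower in dbr1-2, besides rbcL, which was listed at 0 there. psbL, a small photosystem II subunit of 117 nt, had 5956 and 5335 FPKM in dbr1-2, against 32173 and 31821 FPKM in Col-0 (−2.51, SE 0.31, limma adjusted p = 0.000554). rps18, a protein of the small ribosomal subunit, had 2963 and 2732 FPKM in dbr1-2, against 5713 and 5857 FPKM in Col-0 (−1.02, SE 0.12, limma adjusted p = 0.000363). ycf1, whose product belongs to the protein import machinery of the chloroplast envelope, had 27.8 and 25.4 FPKM in dbr1-2, against 58.3 and 58.3 FPKM in Col-0. Calls for the 114 nt loci psaI, rpl36 and rps12 were each lost without 1 library of either genotype with RNase R, which were dbr1-2 replicate 2 or Col-0 replicate 1 for psaI and rpl36 and dbr1-2 replicate 1 or Col-0 replicate 2 for rps12. With tag year as a covariate rpl36 (−1.73, limma adjusted p = 0.177) and rps12 (−0.78, limma adjusted p = 0.196) did not pass, and psaI did (limma adjusted p = 0.0355).

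**Figure D5:**
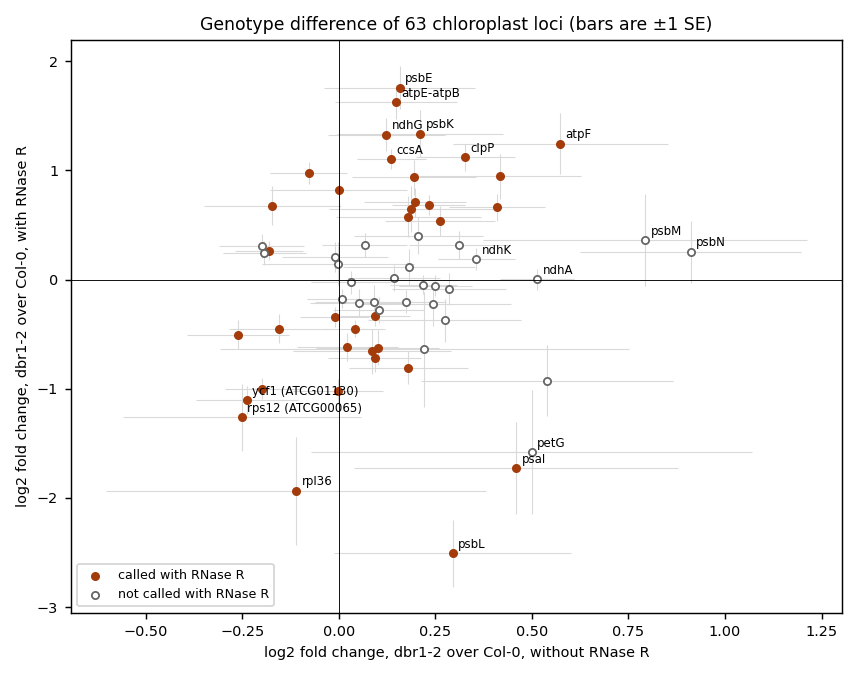
Log2 fold change of dbr1-2 over Col-0 without RNase R (x axis) and with it (y axis) for 63 members, bars ±1 SE; filled points were called with RNase R. The spread along the y axis, from −2.51 for psbL to 1.76 for psbE, is wider than along the x axis, from −0.26 for rps19 to 0.91 for psbN.

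The interaction asks whether RNase R changed a locus differently in dbr1-2 and in Col-0. It was called for 18 members, 9 with a more positive change in dbr1-2 and 9 with a more negative one, against 10.8% and 2.99% (13.7% in all) over all tested loci. With chloroplast median ratios the split was 6 and 21, with one common total 2 and 4, and psbE, psbL and psaI, besides psbA with its zeros, were called under all 4 scalings. Within the psbE cluster the order of the genotypes turned round: psbE changed by 3.10 in dbr1-2 and 1.50 in Col-0, and psbL by 1.78 in dbr1-2 and 4.58 in Col-0. Their ratio was 2.72 and 4.48 in dbr1-2 with RNase R and 0.18 and 0.19 in Col-0 with RNase R, against 1.87 and 1.05 in dbr1-2 and 1.84 and 1.29 in Col-0 without it. Similarly ndhE over ndhG was 2.46 and 2.93 in dbr1-2 with RNase R and 10.7 and 11.6 in Col-0 with RNase R, while all 4 libraries without it lay between 0.70 and 0.78.

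Nuclear genes that act on chloroplast RNA were read from a list of 20, of which 19 were tested. In dbr1-2 against Col-0, 7 were higher and none lower with RNase R (12 not called), against 29.9% higher over all tested loci. Without RNase R, 6 were higher and none lower (13 not called), against 14.2% higher over all tested loci, and the median was 0.23 in both comparisons. SIG5, a stress- and light-responsive sigma factor of the plastid RNA polymerase, was among the 7 and the 6. Its log2 fold change was 0.48 with RNase R (limma adjusted p = 0.00806) and 1.11 without it (limma adjusted p = 0.000732). SIG5 stood at 0.504 and 0.652 FPKM in treated dbr1-2, against 0.110 and 0.144 in treated Col-0. Untreated mutant libraries held 2.72 and 2.48 FPKM, against 0.565 and 0.774 for the untreated wild type. At such low values the added 1 FPKM shrinks both fold changes, so their sizes cannot be compared. HCF107, a protein needed for psbH transcripts in Arabidopsis, was also among the 7 and the 6 (1.56 with RNase R and 0.54 without it). Of 14 nuclear photosynthesis genes tested, 6 were higher and 3 lower in dbr1-2 in each comparison, read against the same shares of all loci, the 3 being LHCB1 genes, which are close copies of each other. The part of these nuclear genes in the chloroplast values was not tested.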

How the data were processed

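The authors deposited gene-level FPKM from 8 libraries. Per the submitters' processing notes, the tools were TopHat2 2.0.13, Cufflinks 2.2.1 and Cuffnorm 2.2.1 and the build was TAIR10. Settings, such as the treatment of multi-mapped reads and of strand, are not given in the sources used here. RNA was Trizol-extracted, depleted with Ribo-Zero and, in 2 groups, treated at 37 °C for 2 h using RNase R, per the labels' protocols. Plastid loci were named by coordinates from the TAIR10.1 annotation, and 116 of 130 intervals matched exactly. limma 3.58.1 in R 4.3.3 was fitted to log2(FPKM + 1) for the 14351 loci reaching 1 FPKM in 2 or more libraries (lmFit, contrasts, eBayes with trend, 4 group means, 4 residual degrees of freedom), with two-sided Benjamini-Hochberg adjusted p under 0.05 over all tested loci within each of 5 comparisons. Folds on this scale understate changes of low loci. Exact permutation of 2 against 2 libraries cannot go below p = 0.33. Depth is not given and was estimated only from the steps of low values. Members, lists, clusters and ratios were chosen with earlier results of these data known.

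Named genes are members with the 5 highest levels in each group, the 6 largest called rises and falls per comparison at a mean of at least 5 FPKM without overlap (overlap not asked for the interaction), members at 0 in 1 to 6 libraries and above 50 FPKM in another, several-name rows, the 2 highest of each functional group and intron-containing genes. Other genes named, mostly those of clusters, were chosen after their values were seen. Replicate numbers of the libraries without RNase R go with the tag year, and deviations from group means correlated at r = 0.303 between those groups and at −0.051 to 0.083 for other pairs of groups. The procedure was tested on simulated data. Values of some members are not reported here. Alternatives were other pseudocounts (0.1, 10), filters, scalings, covariates, library subsets and removal of short loci, the last chosen after seeing the data. Python 3.11.15 was used for tables and matplotlib 3.10.9 for plots.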

Additional observations from a re-analysis of the deposited data

Results flagged for a closer look

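The RNase R change differed between dbr1-2 and Col-0, by limma's interaction test across all loci, for 18 chloroplast members (13.7% of all tested loci were called). Values are the log2 change in dbr1-2 minus that in Col-0. They were positive for psbE (1.60), atpE-atpB (1.48), ndhG (1.21) and psbK (1.13), among others. They were negative for psbL (−2.80), psaI (−2.19), rps18 (−1.02), rpl33 (−0.99), ycf1 (ATCG01130) (−0.86) and ndhE (−0.81). psbA was called too, but its RNase R libraries and its dbr1-2 libraries are all listed at 0. psbL and psaI are 117 and 114 nt long. Both dbr1-2 libraries with RNase R carry the earlier tag year and both Col-0 ones the later, so genotype and tag year cannot be told apart in this test. With tag year as a covariate 13 members were called, 12 of them among the 18, and psaI, rpl33, ndhG and ndhE were among those that did not pass.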

How the results depend on the processing

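Counts of called members that moved by more than 1.5 times were these. For dbr1-2 against Col-0 without RNase R (3 calls), median ratios over nuclear loci gave 1 and a fit of only the 4 libraries compared gave 8. Leaving out 1 library gave 1 to 7, with 1 without replicate 1 of dbr1-2 or of Col-0 without RNase R and 7 without either dbr1-2 library with RNase R. For dbr1-2 against Col-0 with RNase R (38), one common total (TPM) gave 18, only the libraries compared 25 and tag year as a covariate 22; leaving out 1 library gave 26 to 38. For the interaction (18), one common total gave 6, and leaving out 1 library gave 10 to 28, with 10 without either dbr1-2 library without RNase R, 10 and 11 without Col-0 replicate 2 and 1 with RNase R and 28 without dbr1-2 replicate 2 with RNase R. The cause was not tested, and the interaction needs all 4 groups, so it was not run on fewer. RNase R against none gave 50 to 61 calls in dbr1-2 and 53 to 61 in Col-0 among the other alternatives. They are not the same calls under another scaling: with one common total 24 of 58 were shared in dbr1-2 and 29 of 60 in Col-0, and 19 and 18 were called the other way. With nuclear median ratios 52 of 58 and 44 of 60 were shared, and with chloroplast median ratios 48 of 58 and 51 of 60. There were 49 calls in each, all of them among the calls above, when loci under 150 nt were removed and fewer loci were tested. All 58 calls in dbr1-2 had the same sign within the earlier tag year, and all 60 in Col-0 within the later. These within-year values reuse the called libraries, leaving out only the untreated library of the other year. Agreement in sign is therefore largely built in.

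The mean share of the FPKM total held by chloroplast loci was 45.9% in dbr1-2 and 50.5% in Col-0 with RNase R and 46.6% in dbr1-2 and 46.6% in Col-0 without it. Without psbM, psbA and rbcL it was 23.1%, 31.0%, 36.1% and 36.8% in the same order. Without loci under 300 nt it was 47.7%, 57.2%, 17.7% and 27.8% in that order, where psbA and rbcL, listed at 0 in dbr1-2, count in Col-0. For the 51 largest called changes only, 1041 values under the alternatives had the same sign, and 97 of them did not pass. Among other members, calls turned round between scalings, for 26 members in dbr1-2 and 27 in Col-0 in all. ndhK without RNase R failed under 13 of its alternatives, psbK and psaI in the interaction under 13 and 10, and rbcL, whose zeros are doubtful, under 10 for RNase R in Col-0.

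The replicate numbers share a tag year only without RNase R, and with the replicate as a block the members called were 39 and 4 for genotype (treated, then untreated), 58 and 61 for RNase R (dbr1-2, then Col-0) and 20 for the interaction. At the loci of 114 nt, 1 step was 366.7 to 1633.5 FPKM with RNase R, and what depth limits is not known, since it is not given.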
